A study of Mus musculus with 18 samples.

Results

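NF-κB subunits and the inhibitors that hold them back were followed through the open chromatin around 9 mouse genes: Nfkb1, Nfkb2, Rel, Rela and Relb for the subunits, and Nfkbia, Nfkbid, Nfkbiz and Tnfaip3 for the inhibitors. Peaks of 18 libraries were merged into union regions wherever they overlapped by at least 1 bp, and a region was taken when the nearest end of a protein-coding gene within 100000 bp of its centre belonged to one of these genes. This gave 47 of 33115 regions. Regions are numbered within each gene by rising coordinate on mouse build mm10.

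NF-κB factors are dimers of Rel-family proteins that wait in the cytoplasm, bound by inhibitors of the IκB family. In T cells the antigen receptor signals through adaptor proteins to the IκB kinases, which mark IκB for destruction, so that the dimers enter the nucleus and bind κB sites. Their target genes include their own brakes, such as Nfkbia and Tnfaip3, which closes the circuit.

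The libraries are ATAC-seq, in which a transposase cuts and tags accessible DNA, of freshly prepared naive CD4 T cells. The cells carried an Nr4a1-dsGFP reporter, whose signal follows tonic T cell receptor stimulation, and were taken as reporter-high and reporter-low fractions from mesenteric lymph nodes, axillary lymph nodes and spleen. Each of the 6 groups (mesenteric high and low, axillary high and low, spleen high and low) had 3 libraries that the titles call biological replicates. The series asks how tonic stimulation and the organ relate to chromatin in these cells. All groups share the C57BL6/J strain, a genotype given as WT and no treatment, and the labels give no age. The reporter that set high apart from low was the basis of the groups, and Nr4a1 is not a member here. Nothing in the titles ties a library to an animal, so the p-values below speak of the spread among libraries, part of which may be technical.

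Peaks were called per sample, and each list held 14372 to 23129 peaks. Relative depth, read back from the authors' peak values as reads per 10 kb of background, ran from 8.48 to 16.63 and averaged 13.4 in high and 11.27 in low libraries. The caller's fragment estimate was not given and was inferred as the width of the narrowest peak in each list, which also entered the relative depth. It was 161 to 176 bp in 12 libraries and 216 to 236 bp in 6. These 6 were spleen low replicate 3, all 3 axillary low libraries and axillary high replicates 1 and 3. Of 8 naive CD4 T cell markers, Cd3d and Ccr7 had a region within 1000 bp of a gene end in all 18 libraries, and 0 of 5 B cell markers had one in any library. Of 27 markers of other cell types, Cd8b1 had such a region in all libraries and 20 had none in any. In chi-square terms, libraries of 1 group differed at shared regions by 0.512 to 0.637 per region in 18 pairs. Libraries of different groups differed by 0.621 to 0.953 in 135 pairs. Both ranges lay below the value of about 1 that independent counts give. These heights are maxima at regions with a peak in every library, so 1 need not be the value to expect of them. As the titles tie no library to an animal, each group's 3 libraries were also averaged to 1 value. For calls over all organs or between organs, that result is given where it ends a call. Within 1 organ such averaging leaves 1 value a group and no test.

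Promoter windows of 6 of the 9 genes were found in the RefSeq table (build GRCm38.p6), from 250 bases before to 50 after a transcription start. They are shown because most of the accessible starts described below lie in them, and because κB sites are the letters the proteins of these genes read. Where a gene had several windows, the one under the region with most libraries is given. Capitals mark matches to the 10-letter κB consensus on either strand, with overlapping matches run together.
Nfkb2, chr19:46304487-46304786, plus strand: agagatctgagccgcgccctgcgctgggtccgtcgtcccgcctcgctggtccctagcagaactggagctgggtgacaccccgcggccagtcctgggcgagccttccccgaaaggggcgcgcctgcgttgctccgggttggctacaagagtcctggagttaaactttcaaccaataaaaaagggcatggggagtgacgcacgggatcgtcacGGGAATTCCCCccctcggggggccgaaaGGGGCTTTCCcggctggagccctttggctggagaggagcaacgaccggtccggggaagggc
Rel, chr11:23770920-23771219, minus strand: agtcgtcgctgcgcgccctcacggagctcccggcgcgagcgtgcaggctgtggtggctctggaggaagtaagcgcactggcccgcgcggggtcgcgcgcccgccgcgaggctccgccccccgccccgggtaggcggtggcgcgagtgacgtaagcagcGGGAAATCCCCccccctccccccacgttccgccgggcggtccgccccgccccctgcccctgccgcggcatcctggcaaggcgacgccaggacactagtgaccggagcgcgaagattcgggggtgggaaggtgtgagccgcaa
Rela, chr19:5637291-5637590, plus strand: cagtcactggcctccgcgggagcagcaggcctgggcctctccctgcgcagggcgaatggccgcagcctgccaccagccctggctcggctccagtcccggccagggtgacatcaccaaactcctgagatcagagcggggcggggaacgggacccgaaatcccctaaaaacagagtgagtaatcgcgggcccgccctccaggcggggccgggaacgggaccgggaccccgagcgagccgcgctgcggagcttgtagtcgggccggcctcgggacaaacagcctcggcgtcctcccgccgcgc
Nfkbia, chr12:55492598-55492897, minus strand: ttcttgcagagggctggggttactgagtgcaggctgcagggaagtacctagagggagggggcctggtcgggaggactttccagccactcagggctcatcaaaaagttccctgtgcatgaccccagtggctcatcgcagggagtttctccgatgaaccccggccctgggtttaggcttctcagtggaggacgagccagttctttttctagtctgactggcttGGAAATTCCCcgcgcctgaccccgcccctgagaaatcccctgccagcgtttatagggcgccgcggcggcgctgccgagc
Nfkbid, chr7:30422156-30422455, plus strand: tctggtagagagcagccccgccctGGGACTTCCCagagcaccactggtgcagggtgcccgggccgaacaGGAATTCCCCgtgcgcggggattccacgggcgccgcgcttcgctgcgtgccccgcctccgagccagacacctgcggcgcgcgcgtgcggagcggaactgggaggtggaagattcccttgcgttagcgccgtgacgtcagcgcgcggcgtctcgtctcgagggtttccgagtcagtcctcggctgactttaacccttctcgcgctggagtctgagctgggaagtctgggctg
Tnfaip3, chr10:19015361-19015660, minus strand: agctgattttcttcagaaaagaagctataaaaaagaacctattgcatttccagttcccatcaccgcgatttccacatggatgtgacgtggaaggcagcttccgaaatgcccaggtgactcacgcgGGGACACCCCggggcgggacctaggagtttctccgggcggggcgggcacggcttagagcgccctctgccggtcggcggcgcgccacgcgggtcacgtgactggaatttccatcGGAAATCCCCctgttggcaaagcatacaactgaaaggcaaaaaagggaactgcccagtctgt
The κB consensus was present in 5 of these 6 windows, in 7 of all 11 windows of these 6 genes, and in 8.5% of the 32851 windows of the table. Overlapping windows of Nfkb2 share a match, so the 7 are not all separate. Rela, the gene of the most studied activating subunit, was the one without a match. The windows held 56.7% to 75% G and C, against a median of 52.7% over the table. A match describes letters in the window and says nothing about binding there.

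Each of the 6 windows lay under a region of its own gene. The regions at Rel, Nfkbia and Tnfaip3 were present in all 18 libraries, those at Nfkb2 and Rela in 15 and that at Nfkbid in 12. The mean summit lay 37 bp before the start of Rel (SD over libraries 84.9 bp) and 23 bp before that of Tnfaip3 (SD 52.4 bp). At Nfkbia the mean lay 275 bp after the start, but the summits were scattered there (SD 296 bp).

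Of the 47 regions, 13 (27.7%) were present in all 18 libraries and 13 (27.7%) in a single one, against 26.4% and 19.0% of all regions. Inside the genes lay 23 regions and outside them 24. Regions within 1000 bp of a gene end made up 21.3% of the 47, against 30.5% of all regions. Among the 13 present everywhere, 46.2% were that close, against 64.1% of the 8756 regions present in all libraries. Nfkb1 had 13 regions, more than 99.3% of the genes with any region, and Tnfaip3 had 9, more than 97.2%. Nfkbia and Nfkbiz had 6 each, Nfkbid 4, Rel 3, and Nfkb2, Rela and Relb 2 each. Tnfaip3 held 5 of the 13 regions present everywhere, Nfkbiz 3 and Nfkb1 2, while Rel, Relb and Nfkbia held 1 each and Nfkb2, Rela and Nfkbid none. At genes of this family, peaks present in every library were thus found both at starts and far from them.

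**Figure D1:**
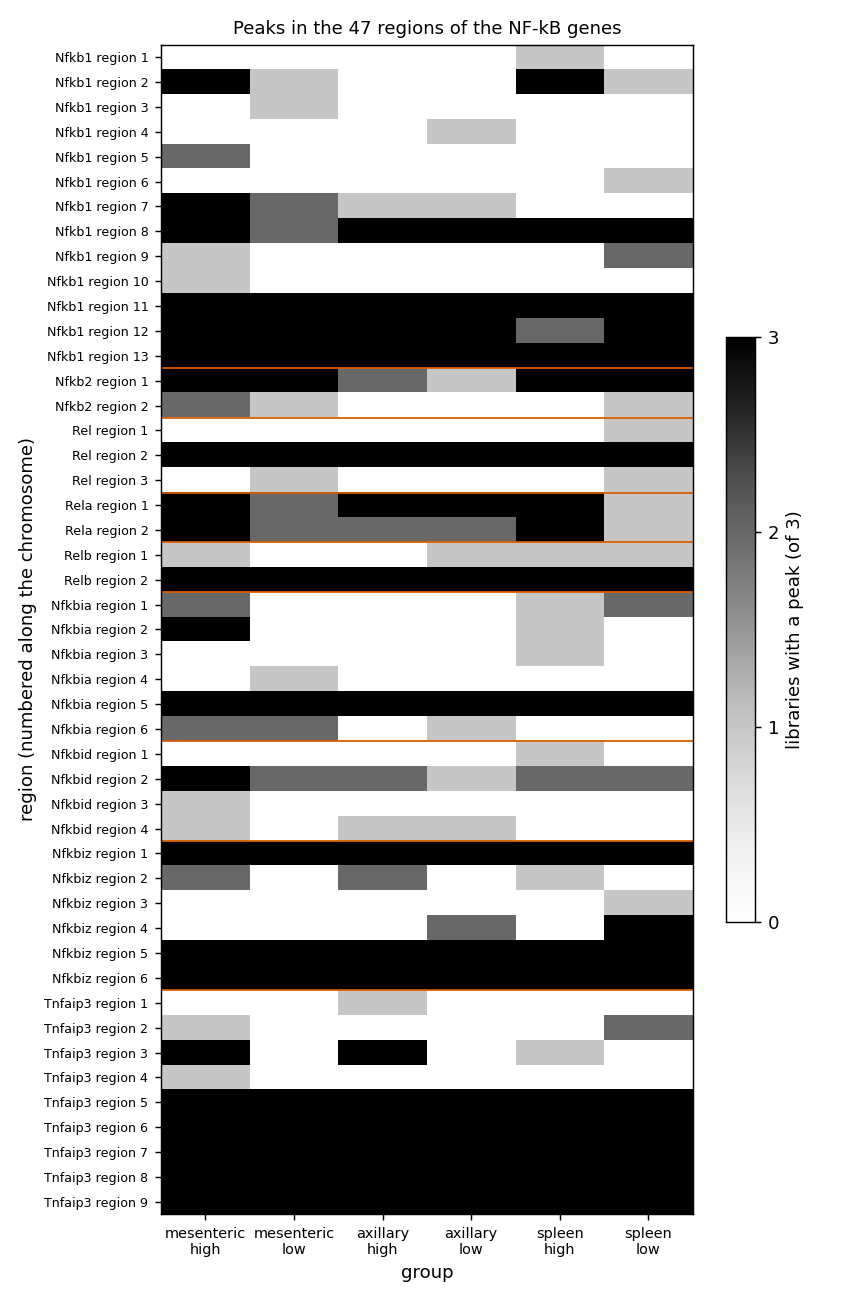
Number of libraries with a peak (0 to 3, white to black) for each of the 47 regions (rows, grouped by gene) in the 6 groups (columns, high left of low within each organ). 13 rows are black throughout. Tnfaip3 region 3 is filled in high columns alone, as are rows with fewer libraries such as Nfkbiz region 2 and Nfkbia region 2. Rows such as Nfkbiz region 4 are filled in low columns alone.

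Heights below are the reads at the tallest position of a region, recovered from the authors' fold and p and divided by a scale factor per library that sets the median of the 8756 regions present everywhere equal, called scaled summit reads. Differences are on the log2(summit reads + 1) scale after that scaling, tested with limma and adjusted by Benjamini-Hochberg over the 8756 regions.

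Among the subunits, Relb gave the one high-against-low call. Relb encodes the subunit of the non-canonical pathway, which pairs with the processed product of Nfkb2. Its region 2 (chr7:19628375-19629533, 1159 bp wide, centred 484 bp inside the gene from its higher-coordinate end) held 34.8, 38.6 and 25 scaled summit reads in mesenteric high libraries, against 51.0, 41.2 and 51.1 in mesenteric low ones. In the axillary nodes it held 38.7, 39.4 and 34.1 in high and 41.7, 42.6 and 33.3 in low libraries. In the spleen it held 30.8, 31.4 and 31.4 in high and 43.2, 35.4 and 45.3 in low libraries. Every high library lay below every low one in mesenteric nodes and in spleen, and the levels overlapped in axillary nodes. Over organs the region averaged 33.8 ± 4.7 in high and 42.8 ± 6.04 in low libraries (SD, n = 9 each), and it fell by 0.33 on the log2 scale (SE 0.085, limma adjusted p 0.0233). It was the 1 of 13 tested regions called, against 1.06% of all 8756, of which 0.32% were lower. A lower height can come from fewer cells with the site open or from less opening per cell, and these cannot be told apart here. Within organs the difference was -0.56 in mesenteric nodes (adjusted p 0.0186, where 1.42% of all regions were called and 0.891% were lower), -0.06 in axillary nodes (adjusted p 0.934, 0.32% called) and -0.39 in spleen (adjusted p 0.323, 0.206% called). In mesenteric nodes, leaving out single libraries gave -0.68 to -0.38 with adjusted p 0.0134 to 0.313, and this call was lost without mesenteric low replicate 1, mesenteric low replicate 3 or mesenteric high replicate 3. In the log2 of the authors' fold the mesenteric difference was -0.34 with adjusted p 0.348. A test of whether the 3 organs' differences differ gave p 0.0451, adjusted 0.463. With each group as 1 value the difference over organs was -0.33 with adjusted p 0.209, and in the log2 of the authors' fold it was -0.29 with adjusted p 0.18. Over organs, leaving out single libraries gave -0.39 to -0.27 with adjusted p 0.00411 to 0.122, and the call was lost without spleen low replicate 3, mesenteric low replicate 1, mesenteric low replicate 3 or mesenteric high replicate 3. With the short-fragment libraries of mesenteric nodes and spleen alone it was -0.45, adjusted p 0.0154. The local background at the region, as a multiple of the library's genome background, was 10.5 ± 0.449 in mesenteric high and 13 ± 0.798 in mesenteric low libraries (SD, n = 3 each). Its part in the difference was not tested. By fold, the region stood between percentiles 61.2 and 95.5 of each library's own list. The other region of Relb, region 1, was detected in 2 high and 2 low samples.

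**Figure D2:**
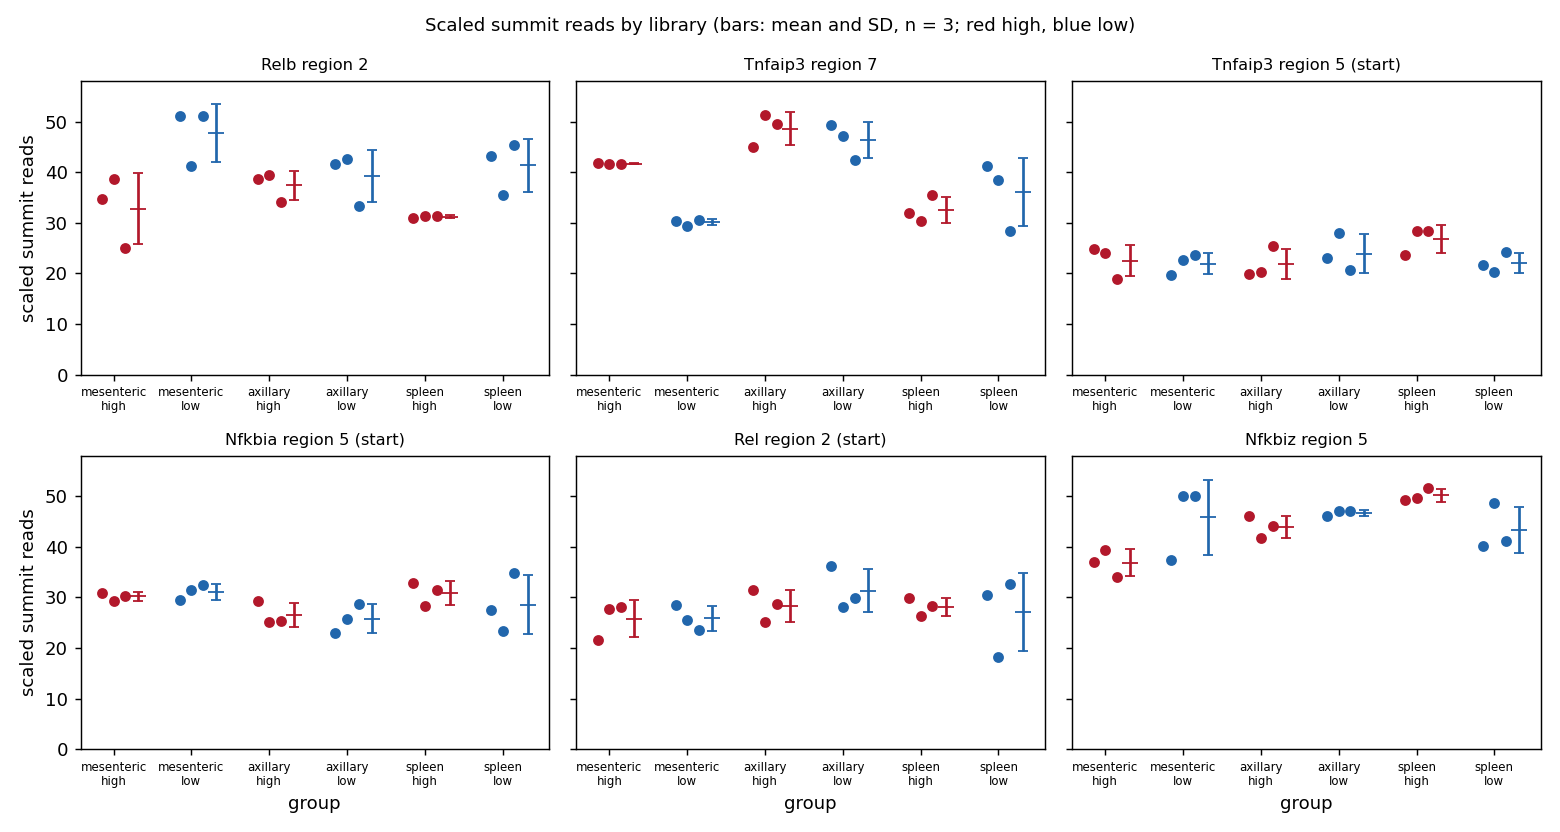
Scaled summit reads of 6 regions (panels) in each library (points, n = 3 per group, mean and SD beside them), red for high and blue for low, with groups along the horizontal axis. Relb region 2 is lower in high libraries of mesenteric nodes and spleen, and Tnfaip3 region 7 is highest in axillary nodes.

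Rel encodes c-Rel, the subunit best known for lymphocyte activation. Its start region, region 2 (chr11:23770529-23771641), held 21.6, 27.8 and 28.0 scaled summit reads in mesenteric high and 28.5, 25.5 and 23.6 in mesenteric low libraries. It held 31.4, 25.05 and 28.6 in axillary high and 36.2, 28.0 and 29.8 in axillary low libraries. In spleen high it held 29.8, 26.3 and 28.3, against 30.4, 18.2 and 32.7 in spleen low. High and low libraries overlapped in each organ, and the difference over organs was -0.02 (SE 0.099, limma adjusted p 0.955). Regions 1 and 3 of Rel were detected in 1 and 2 libraries, all of them low.

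Rela encodes the main activating subunit of the canonical pathway. Region 1 over its start (chr19:5637041-5637975) was detected in 9 high and 6 low samples. Its scaled summit reads ran from 7.16 to 14.6 with a median of 11.3 in those high libraries, and from 9.11 to 12.6 with a median of 10.9 in those low libraries. Region 2 (chr19:5648713-5649166, 806 bp beyond the other end of the gene) was detected in 8 high and 5 low samples, where heights ran from 8.1 to 14.3 in high and from 6.87 to 14.9 in low. The heights of high and low libraries overlapped at both regions. Region 1 was present in too many libraries for the tests of presence, and region 2 was tested between organs alone (p 1).

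Nfkb1 encodes the precursor whose processed form is the most common partner of Rela. Its region 11 (chr3:135690864-135691769, 652 bp inside the higher-coordinate end) held 24.7, 26.2 and 21.2 scaled summit reads in mesenteric high and 23.6, 18.6 and 20.6 in mesenteric low libraries. It held 28.2, 31.0 and 24.2 in axillary high and 31.8, 24.7 and 22.9 in axillary low libraries. In spleen high it held 23.6, 23.3 and 22.3, against 27.5, 24.3 and 23.2 in spleen low. The levels overlapped in all 3 organs, with a difference of 0.05 over organs (SE 0.10, limma adjusted p 0.897). Region 13, 39586 bp beyond that end, was also present everywhere and differed by -0.05 (SE 0.12, adjusted p 0.917). Regions 8 and 12 were present in 17 libraries each. The other 9 regions of Nfkb1 were present in 8 libraries or fewer.

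Nfkb1 also held both regions that differed between organs in presence at an unadjusted p under 0.05. Region 7 (chr3:135636421-135636751, 51931 bp inside the gene) had a peak in 5 mesenteric, 2 axillary and 0 spleen libraries of 6 each (Fisher-Freeman-Halton exact p 0.0181, adjusted 0.281). Where it was called it held 15.5, 11.6 and 11.4 in mesenteric high, 6.87 and 6.88 in mesenteric low replicates 2 and 3, 11.9 in axillary high replicate 2 and 9.17 in axillary low replicate 3. Region 2 (chr3:135594260-135594600, 9775 bp inside the lower-coordinate end) had a peak in 4 mesenteric, 0 axillary and 4 spleen libraries (p 0.0364, adjusted 0.345). It held 11.6, 9.26 and 9.09 in mesenteric high and 5.89 in mesenteric low replicate 1, with 10.3, 7.09 and 12.1 in spleen high and 5.89 in spleen low replicate 1. All 6 high libraries of these 2 organs thus had the peak, against 2 of their 6 low libraries, a grouping that was not tested. Region 2 had 4 high and 1 low libraries when thinned to equal depth, and 3 and 0 in lists cut to an equal length. High against low over 9 and 9 libraries, region 2 had 6 and 2 peaks (exact p 0.153 by Fisher's test, adjusted 0.81) and region 7 had 4 and 3 (p 1). Axillary libraries had the lowest depth, 9.89 ± 0.308 reads per 10 kb in high and 9.08 ± 0.541 in low, against 13.7 ± 0.441 and 12.5 ± 2.4 in spleen and 16.6 ± 0.0549 and 12.2 ± 0.471 in mesenteric nodes (SD, n = 3 each). At equal depth neither region kept an unadjusted p under 0.05. In all, 9 of the 47 regions could be tested between organs and 2 had an unadjusted p under 0.05, against 11.2% of 7630 regions. By Benjamini-Hochberg at 0.05, 0 of these 7630 were called (0.0%).

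Nfkb2 encodes the precursor of the non-canonical pathway. Region 1 over the window shown above (chr19:46304325-46304983) was detected in 8 high and 7 low samples, in 6 mesenteric, 3 axillary and 6 spleen libraries. It held 12.4, 19.3 and 15.9 in mesenteric high and 11.8, 12.8 and 7.86 in mesenteric low libraries, and 16.4, 14.2 and 22.3 in spleen high against 16.7, 12.2 and 9.49 in spleen low. In axillary nodes it held 15.7 and 15.4 in high replicates 1 and 3 and 12.1 in low replicate 1. Present in 15 libraries, it was outside the range of either test of presence. Region 2, centred 17 bp before another start of the gene, was detected in 2 high and 2 low samples.

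Among the inhibitors, every call was at Tnfaip3: 1 upstream region differed between organs, in 2 of the 3 comparisons. Tnfaip3 encodes A20, a ubiquitin-editing enzyme that shuts off signalling upstream of the IκB kinases. It has its start at the higher-coordinate end, so its regions 1 to 4 lie beyond the 3′ end and regions 6 to 9 lie upstream.

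Region 7 of Tnfaip3 (chr10:19061972-19062921, 47037 bp upstream of the start) held 41.7, 41.7 and 41.7 scaled summit reads in mesenteric high and 30.4, 29.4 and 30.5 in mesenteric low libraries. It held 45.0, 51.3 and 49.5 in axillary high and 49.3, 47.1 and 42.4 in axillary low libraries. In spleen high it held 31.9, 30.4 and 35.4, against 41.2, 38.5 and 28.5 in spleen low. All 6 axillary libraries lay above all mesenteric and all spleen libraries, and high lay above low without overlap in mesenteric nodes alone. By organ it averaged 35.9 ± 6.36 in mesenteric, 47.5 ± 3.3 in axillary and 34.3 ± 4.94 in spleen libraries (SD, n = 6 each). It was 0.47 higher in axillary nodes than in spleen (SE 0.10, limma adjusted p 0.00154), the 1 of 13 tested regions called against 5.9% of all (3.08% higher). It was 0.42 lower in mesenteric than in axillary nodes (log2 difference -0.42, SE 0.10, adjusted p 0.00357), again 1 of 13 against 9.9% of all (5.49% lower). The comparison of mesenteric nodes with spleen called 0 of the 13 by limma, against 1.35% of all. At an unadjusted p under 0.05 it had 2 of the 13, against 1325 of all 8756. Region 7 differed there by 0.05 (adjusted p 0.87). With the fragment class as a term of the model, the axillary minus spleen difference was 0.58 (adjusted p 0.0239) and the mesenteric minus axillary one -0.55 (adjusted p 0.0809). In the log2 of the authors' fold neither difference was called, at 0.24 (adjusted p 0.17) and -0.20 (adjusted p 0.229). The local background at the region moved the same way, at 10.9 ± 1.49 times the genome background in mesenteric, 13.2 ± 1.37 in axillary and 9.75 ± 1.23 in spleen libraries (SD, n = 6 each), and its part in the difference was not tested. The mesenteric minus axillary difference was also not called with each group as 1 value (adjusted p 0.0503) or when libraries were scaled by genome background (-0.24, adjusted p 0.0965), a scaling that moves the median of all regions by 0.17 in this comparison and by 0.21 in mesenteric minus spleen. Leaving out single libraries ended neither call.

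High against low, region 7 differed by 0.45 in mesenteric nodes (SE 0.14, adjusted p 0.0636), 0.07 in axillary nodes (adjusted p 0.915) and -0.13 in spleen (adjusted p 0.826). The test of a difference between organs gave p 0.0106, adjusted 0.303. That test called 0 of the 13 regions by limma, against 0.251% of all regions. At an unadjusted p under 0.05 it had 4 of the 13 (Tnfaip3 region 7, Nfkbiz regions 1 and 5 and Relb region 2), against 911 of all 8756. With the fragment class in the model, a setting chosen after seeing the data, the mesenteric difference of region 7 had a limma adjusted p of 0.0457. All mesenteric libraries had short fragment estimates, so that term cannot adjust this difference.

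**Figure D3:**
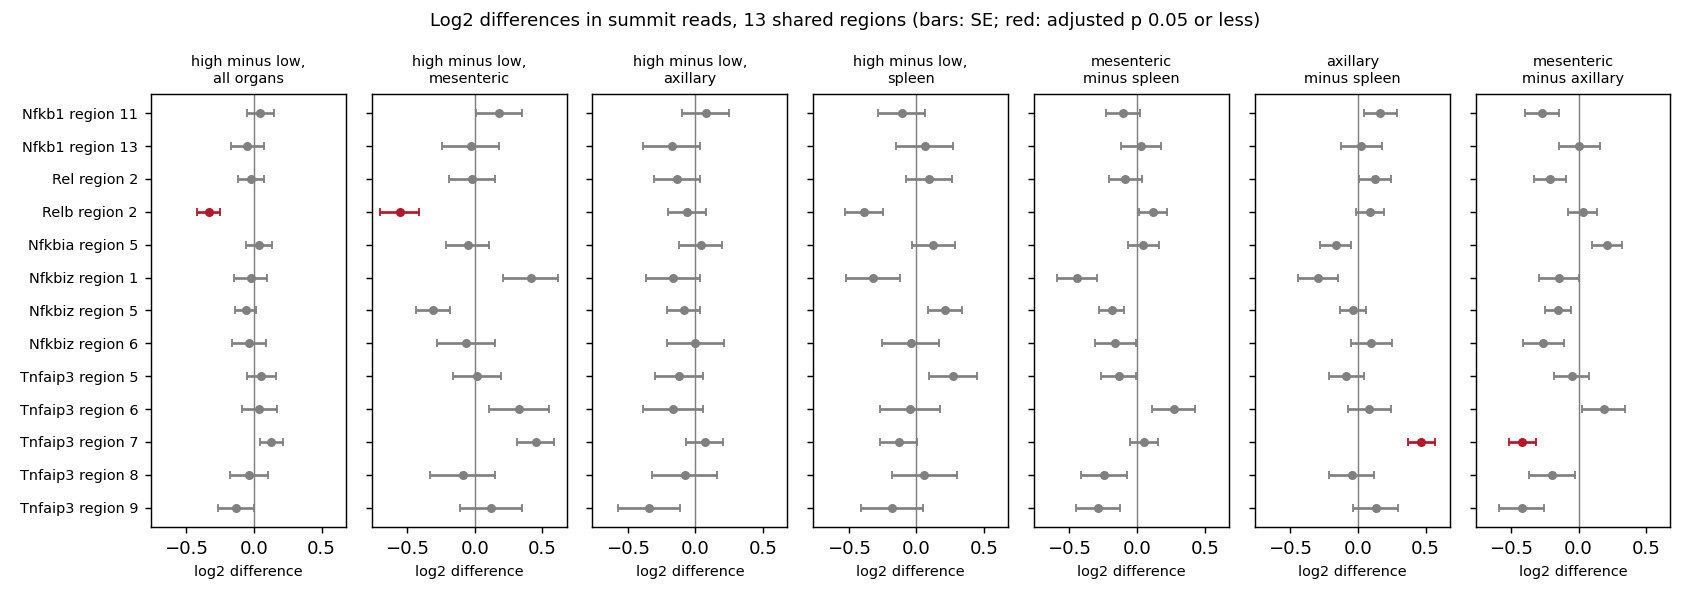
Log2 differences in summit reads with SE (horizontal axis, 7 comparisons in panels) of the 13 regions present in all libraries (rows). Red points were called at an adjusted p of 0.05 or less: Relb region 2 in high minus low (-0.33) and in mesenteric nodes (-0.56), and Tnfaip3 region 7 in axillary minus spleen (0.47) and mesenteric minus axillary (-0.42).

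Region 3 of Tnfaip3 (chr10:18964796-18965151, 35936 bp beyond the 3′ end) was detected in 7 of the 9 high and none (0) of the 9 low samples (exact p 0.00226 by Fisher's test, adjusted 0.382). It held 8.5, 10.0 and 7.58 scaled summit reads in mesenteric high, 6.27, 9.54 and 13.2 in axillary high and 10.3 in spleen high replicate 1. These were low peaks, and no low library of any organ had one. It was the 1 of 4 regions of these genes with an unadjusted p under 0.05 in high against low, where 6.1% of the 5737 tested regions had one (5.84% more often in high) and 0 were called by Fisher's exact test after adjustment (0.0%). All 4 tested regions had more high than low libraries, as had 64.2% of all 5737, and depth was higher in high libraries. Thinned to equal depth the region had 6 high and 0 low libraries, and at a −log10 p of 10 or more it had 5 and 0, too few to test. In lists cut to an equal length it could not be tested either. In the 34 regions not present everywhere, 20 had more high libraries, 12 more low and 2 equal numbers. In lists of equal length the same 34 divided into 14 with more high, 11 with more low, 1 with equal numbers and 8 in no library. Of all 4359 regions tested at equal length, those with an unadjusted p under 0.05 were 81 more often in high and 82 more often in low, against 335 and 15 in the full lists.

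The start region of Tnfaip3, region 5 (chr10:19014506-19015743), held 24.7, 23.9 and 18.9 in mesenteric high and 19.6, 22.6 and 23.6 in mesenteric low libraries. It held 19.9, 20.3 and 25.3 in axillary high and 23.0, 28.0 and 20.6 in axillary low libraries. In spleen high it held 23.6, 28.3 and 28.3, against 21.6, 20.3 and 24.2 in spleen low. The levels overlapped in all organs, and the difference was 0.06 (SE 0.11, limma adjusted p 0.888). Upstream regions 6, 8 and 9, at 28660, 79050 and 89544 bp from the start, were present in all libraries and gave high minus low differences of 0.04, -0.04 and -0.13, none called. Region 9 was 0.42 lower in mesenteric than in axillary nodes without passing the test (log2 difference -0.42, adjusted p 0.0818), and it passed without axillary high replicate 1 (-0.60, adjusted p 0.0119). Regions 1, 2 and 4 beyond the 3′ end had a peak in 1, 3 and 1 libraries.

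**Figure D4:**
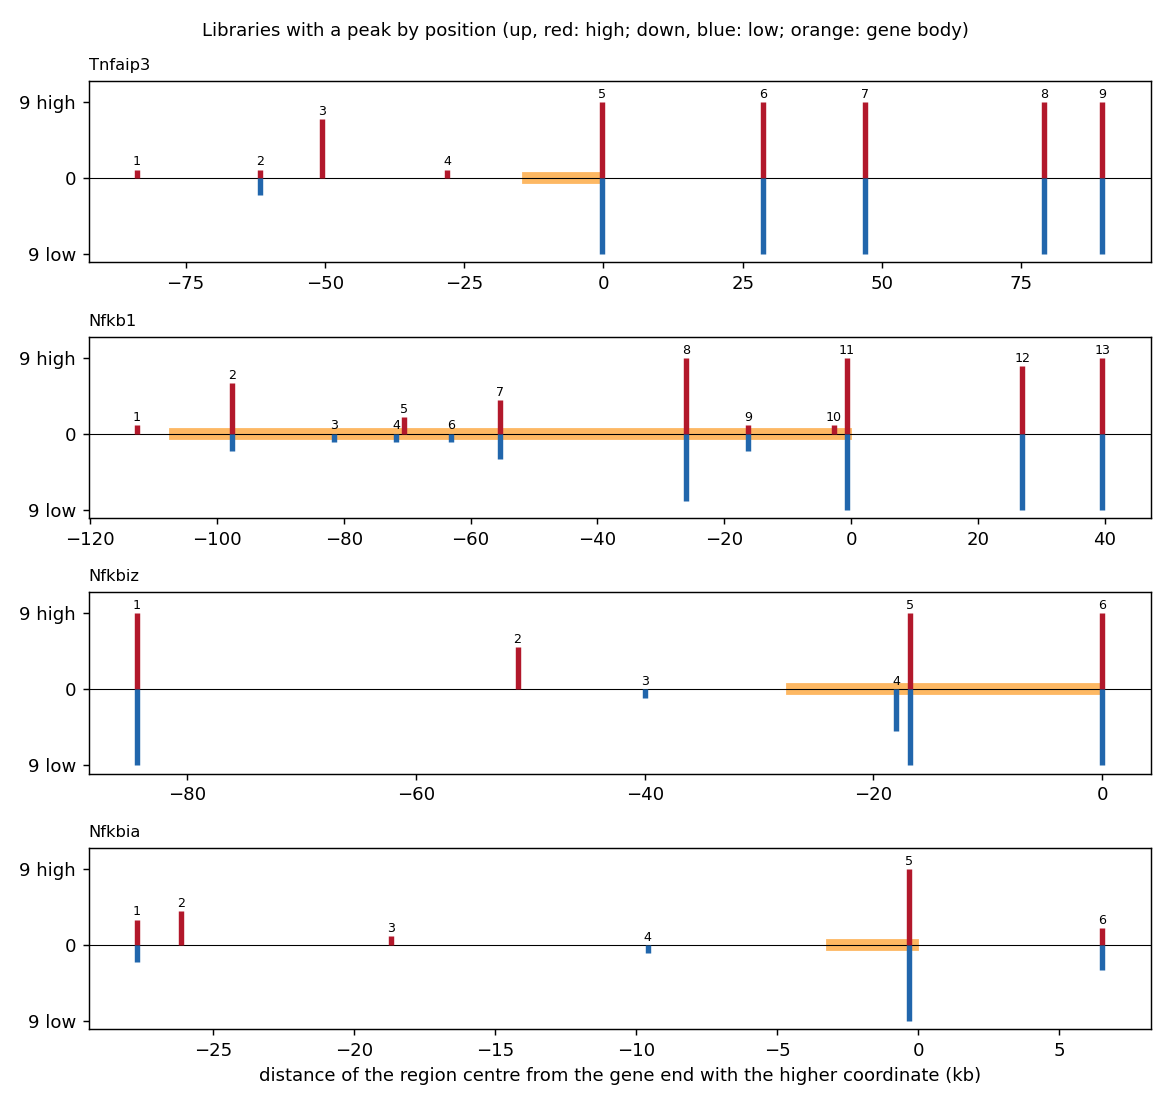
Number of libraries with a peak at each region of Tnfaip3, Nfkb1, Nfkbiz and Nfkbia (high upward in red, low downward in blue, 0 to 9 each), by distance in kb of the region centre from the gene end with the higher coordinate; orange marks the gene body. The 5 regions of Tnfaip3 that are full in both directions are its start and 4 upstream regions, and region 3 on the other side is filled upward with 7 libraries and downward with 0.

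Nfkbia encodes IκBα, the inhibitor that is destroyed and remade in each round of signalling. Its start region, region 5 (chr12:55491811-55492873), held 30.9, 29.3 and 30.3 in mesenteric high and 29.4, 31.4 and 32.4 in mesenteric low libraries. It held 29.3, 25.05 and 25.3 in axillary high and 23.0, 25.8 and 28.7 in axillary low libraries. In spleen high it held 32.9, 28.4 and 31.4, against 27.5, 23.3 and 34.8 in spleen low. High and low overlapped in every organ, with a difference of 0.04 (SE 0.093, limma adjusted p 0.91). The other 5 regions of Nfkbia had peaks in 1 to 5 libraries, and region 2, 22897 bp beyond the 3′ end, had them in 4 high and 0 low libraries, too few to test.

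Nfkbiz encodes IκBζ, a nuclear IκB that can act with the subunits on target genes. Its tallest region, region 5 (chr16:55821729-55822658, 10819 bp inside the gene), held 37.1, 39.4 and 34.1 in mesenteric high and 37.3, 50.05 and 50.1 in mesenteric low libraries. It held 46.0, 41.8 and 44.0 in axillary high and 46.1, 47.1 and 47.01 in axillary low libraries. In spleen high it held 49.3, 49.6 and 51.6, against 40.2, 48.6 and 41.1 in spleen low. High lay above low in spleen and below low in axillary nodes, while the levels overlapped in mesenteric nodes. Over organs the difference was -0.06 (SE 0.077, limma adjusted p 0.813).

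Nfkbiz region 6 at the higher-coordinate end of the gene (chr16:55838450-55839471) ran from 10.6 to 18.7 in high libraries with a median of 16.4, and from 13.5 to 21.8 in low libraries with a median of 15.7. The levels overlapped, with a difference of -0.04 (SE 0.12, limma adjusted p 0.94). Region 1, 56816 bp beyond the other end, was 0.44 lower in mesenteric nodes than in spleen without passing the test (log2 difference -0.44, SE 0.15, adjusted p 0.104). Regions 2 and 4 were opposite in presence, with 5 high and 0 low libraries for region 2 and 0 and 5 for region 4, below the 6 libraries required for the test. When 4 to 14 libraries were allowed, each had Fisher's exact p 0.0294, adjusted 0.856. They were 2 of the 3 regions of these genes, of 12 tested, with an unadjusted p under 0.05 in that range, as had 4.95% of all 9931 tested. The 5 libraries of region 4 were spleen low replicates 1 to 3 and axillary low replicates 1 and 2, of which 3 were among the 6 with long fragment estimates. Its peaks stood at percentiles 0.0896 to 1.83 of fold in their lists, among the weakest called.

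Nfkbid encodes IκBNS, another nuclear IκB, which T cells use in activation. Region 2 over the window shown above (chr7:30422125-30422538) was detected in 7 high and 5 low samples (exact p 0.62 by Fisher's test). It held 22.4, 21.6 and 20.5 in mesenteric high and 13.7 and 15.7 in mesenteric low replicates 2 and 3, with 18.8 and 15.5 in axillary high replicates 1 and 2 and 16.4 in axillary low replicate 1. In spleen it held 18.5 and 17.2 in high replicates 1 and 2 and 17.7 and 17.2 in low replicates 1 and 2. The mesenteric high libraries, the deepest of all, were the highest in scaled summit reads. Region 4, centred 23 bp before another start, was detected in 2 high and 1 low samples, while regions 1 and 3 appeared in 1 high library each.

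Over the 13 regions present everywhere, the median high minus low difference was -0.02, against 0.00 over all 8756. Between organs the median was -0.10 for mesenteric minus spleen, 0.09 for axillary minus spleen and -0.15 for mesenteric minus axillary, against 0.00, 0.00 and 0.01 over all regions. The organ comparisons share groups, so these medians are not separate observations.

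Genes that act with the 9 were described from 4 lists. Of 12 genes for kinases and adaptors of the pathway, 68 regions were found, 13 of them in all libraries, and 0 of these 13 were called high against low by limma (smallest p 0.0715, at Bcl10). One region of Bcl10, an adaptor of antigen receptor signalling, was detected in 6 high and 0 low samples (chr3:145916891-145917234, Fisher's exact p 0.00905, adjusted 0.455), the 1 of 9 tested in this list with an unadjusted p under 0.05, against 6.1% of all regions tested. In presence between organs, 2 regions of Prkcq, a kinase of T cell receptor signalling, had an unadjusted p under 0.05 of 16 regions tested, with 6 mesenteric, 2 axillary and 2 spleen libraries (exact p 0.0364) and with 5, 1 and 5 (exact p 0.0385), against 11.2% of all regions tested, neither passing adjustment. Of 12 adaptors and ubiquitin ligases, 8 regions were tested and 0 were called high against low (smallest p 0.141). Traf6 was lower in axillary nodes than in spleen (log2 difference -0.46, limma adjusted p 0.0276), where 5.9% of all regions were called. Traf2 was higher in mesenteric than in axillary nodes (0.40, adjusted p 0.00597) and Birc3 lower (-0.39, adjusted p 0.00596), where 9.9% were called. The model of these organ calls, and of those in the lists below, held no term for the fragment class. That class was long in most axillary libraries. With each group as 1 value the limma call at Traf6 was lost (adjusted p 0.115). Traf6, Traf2 and Birc3 encode ubiquitin ligases and adaptors of receptor signalling.

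Of 11 other inhibitors and deubiquitinases, 9 regions were tested and 0 were called high against low (smallest p 0.158). A region of Otulin, which removes linear ubiquitin chains, was higher in axillary nodes than in spleen (0.52, SE 0.097, limma adjusted p 0.000233) and lower in mesenteric than in axillary nodes (-0.54, adjusted p 4.48e-05). Of all regions, 5.9% were called between axillary nodes and spleen and 9.9% between mesenteric and axillary nodes. Of 18 NF-κB target genes of lymphocytes, 11 regions were tested and 0 were called high against low (smallest p 0.0208, at Irf1). In presence, Cd83, an activation marker, had a region with 8 high and 2 low libraries (exact p 0.0152 by Fisher's test) and Csf2, a cytokine gene, one with 6 and 1 (p 0.0498), the 2 of 12 tested with an unadjusted p under 0.05, against 6.1% of all regions, neither called after adjustment. Both called regions of Ccr7, the lymph node homing receptor, were higher in axillary nodes than in spleen, by 0.46 and 0.69 (adjusted p 0.0281 and 0.00116). Between mesenteric and axillary nodes, 1 of these Ccr7 regions was lower (-0.48, adjusted p 0.0217) and a region of Cd83 was higher (0.38, adjusted p 0.0149) in mesenteric nodes. With each group as 1 value, limma no longer called 1 Ccr7 region in axillary nodes against spleen (adjusted p 0.112), or Ccr7 (0.0676) and Cd83 (0.0755) in mesenteric against axillary nodes.

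Genes with at least 3 regions present everywhere were ranked by how closely their mean log2 summit reads over the 6 groups followed those of Tnfaip3, the member with most such regions. Of 251 genes, the highest Pearson correlations were those of Mrpl39 (0.979), Edem1 (0.970), Kmt2e (0.960), Lef1 (0.946) and Dthd1 (0.945). These are descriptions over 6 group means that share library scaling and depth.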

How the data were processed

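The members and the gene lists were chosen with earlier results of these data known. Per the submitters' processing notes, the authors used Trimmomatic 0.33, Bowtie2, bedtools and MACS on build mm10; other versions and the caller's options were not given in the sources used here. The deposited peak lists give each peak's position, a score, a fold ratio of reads over background, and −log10 values of p and of q, all the authors' own and used to describe or filter peaks within a list. The deposited summit offset, a position, gave the summit. Of 314829 peaks, 404 outside chromosomes 1 to 19 and X were set aside. Summit reads and local background were solved from fold and p, with exactly 1 whole-number solution within 0.002 for 99.3% of peaks. A library had a region when a peak overlapped it by 1 bp. Fisher's exact test compared 9 high with 9 low libraries at regions present in 6 to 12 libraries, and the Fisher-Freeman-Halton test 3 organs at regions in 5 to 13, both two-sided. limma 3.58.1 (R 4.3.3, trend) tested log2(summit reads + 1), with a pseudocount of 1, at regions present in all 18 libraries. All 6 groups entered each main fit. Differences over organs and between organs came from a model with organ and reporter level as additive terms. Differences within organs, and the test of whether they differ, came from a model with 1 mean per group. Both were adjusted by Benjamini-Hochberg over all regions at 0.05. The tests were tested on simulated data. Per-library values are given for each gene's tallest region, the region nearest its start (nearest end where no strand was known), and regions called or with an unadjusted p under 0.05 for presence. Pathway genes are named when a region passes those limits or has its list's smallest p; some items that this rule takes are not reported here. Library totals of reads are unknown, so recovered depth is relative. Python 3.11.15 and scipy 1.17.1 were used.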

Additional observations from a re-analysis of the deposited data

Results flagged for a closer look

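Nfkbiz region 5 moved in opposite directions without overlap in 2 organs: every high library lay above every low one in spleen (log2 difference 0.21) and below every low one in axillary nodes (-0.088), where the nearest libraries held 46.0 and 46.1 scaled summit reads. The test of the difference between organs gave p 0.0156, which did not pass the correction (limma, adjusted p 0.343). The share of all regions with such an opposite pattern was not counted.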

How the results depend on the processing

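Depth limits presence: a region without a peak may still be open below the caller's threshold. Under other settings the 47 regions became 31, of which 8 were present everywhere, when assigned by the nearest gene start. Starts were known for 6 of the 9 genes, so no region could go to Nfkb1, Relb or Nfkbiz there. That count is thus not like for like with the 47. In high against low, the regions of these genes with an unadjusted p under 0.05 numbered 1, against 0 at a −log10 p of 10 or more, 0 at equal list length and 0 in short-fragment libraries of spleen and mesenteric nodes, but 3 of 8 tested when a peak had to cover 0.5 of the region (against 288 of 7028 over all regions) and 3 of 12 with 4 to 14 libraries (against 492 of 9931). Between organs they numbered 2, against 0 at a −log10 p of 10 or more, 1 at equal list length, 0 at equal depth and 0 with that cover. Without single libraries these counts ran from 1 to 2 and from 2 to 3, and regions called between organs, 0 with all libraries, ran from 0 to 25. For summit reads, regions called high against low numbered 93, against 43 with genome background scaling, 22 for the authors' fold, 36 among regions above the median, 18 with 6 group means, 27 without mesenteric and 58 without axillary libraries, 58 with the fragment class in the model and 44 in short-fragment libraries. The 1 region of these genes called there became 0 for the authors' fold, with 6 group means, and without the spleen or without the mesenteric libraries (0 and 0). In mesenteric minus spleen, 118 calls became 1712 with background scaling, 3 for the fold, 60 above the median, 46 with the fragment class and 0 with group means, and 0 regions of these genes became 2 with background scaling (Tnfaip3 region 6 and Relb region 2, both higher). In axillary minus spleen, 517 calls became 58 for the fold, 53 with the fragment class and 109 with group means, and the 1 region became 0 for the fold. In mesenteric minus axillary, 867 calls became 1882 with background scaling, 222 for the fold, 9 with the fragment class and 246 with group means. The 1 region there became 2 with a pseudocount of 5 and 0 for the fold, with the fragment class and with group means; under background scaling it stayed at 1 but was Nfkbia region 5 in place of Tnfaip3 region 7. The test of differences between organs went to 14 calls with background scaling, 0 for the fold and 42 with the fragment class, against 22. Without single libraries the calls ran from 55 to 102 for high against low, 25 to 124 for mesenteric minus spleen, 291 to 579 for axillary minus spleen, 578 to 890 for mesenteric minus axillary and 5 to 27 for the differences between organs, with 0 to 1, 0 to 0, 1 to 1 and 1 to 2 regions of these genes called in the 4 comparisons. The causes of these changes were not tested. No pairing by replicate number was seen. Same-numbered libraries of different groups correlated from -0.027 to 0.038 in 45 pairs, and differently numbered ones from -0.068 to 0.037 in 90 pairs. A pairing smaller than the counting noise would not show in this check. With the number as a block the calls were 93, 99, 507, 836 and 23, with no call of these genes changed. The short-fragment, fragment class and organ group-mean settings were chosen after seeing the data.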
